A study of Mus musculus with 5 samples.

Results

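The transcription factors Evx1, Evx2, En1, Pax2, Gata2, Gata3, Tal1, Sim1 and Prdm8, which mark or specify ventral interneurons of the spinal cord, were followed through the differentiation of mouse embryonic stem cells (ES cells) towards motor neurons. They are 9 of 19897 gene symbols on the arrays and were taken as a list of names, with every probe whose accession carries that name, 11 probes in all. Pax2 has 3 probes and each of the other 8 genes has 1. All samples are labelled wild type and male. ES is undifferentiated ES cells. Day2, Day3 and Day4 are embryoid bodies, the floating aggregates in which ES cells differentiate, after 8 h, 1 day and 2 days of retinoic acid (RA), and Day7 is motor neurons after 5 days of RA. The sonic hedgehog (Shh) signal was applied together with RA. The samples are whole cultures, with no sort of cells in the labels, and the ES line is not named there.

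In the ventral neural tube, a gradient of Shh divides progenitors into domains, and each domain gives rise to a class of neurons. The V0, V1, V2 and V3 domains form interneurons, and the domain between V2 and V3 forms motor neurons. V0 neurons arise from Dbx1 progenitors, and part of them express Evx1 and Evx2. V1 neurons express En1, and V2 progenitors split into V2a neurons and V2b neurons, the latter with Gata2, Gata3 and Tal1. V3 neurons express Sim1 and come from the most ventral Nkx2-2 domain. Pax2 is shared by inhibitory classes such as V1 and part of V0, and Prdm8, a PR domain zinc finger regulator of neural development, is assigned here to no single class. The list holds no gene particular to V2a.

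Each time point was measured on 1 Agilent 1-colour array, so there is no spread between replicates, no p-value and no standard error, and a change of 2-fold served as a fixed rule of size. Levels are log2 processed signal after quantile normalization, which gives all 5 arrays the same distribution. A level describes 1 probe over the arrays and is not set against the level of another gene's probe, while spike-in probes serve as a measure of background. A probe that the scanner did not mark as well above background gives only a bound on that array, and changes that rest on it are given as "at least". In whole cultures, fewer cells of a type and less RNA per cell cannot be told apart. The Day2 array stands apart. On it, 86.7% of mouse probes passed as well above background, and on the other arrays 57.5% to 65.7%. Olfactory receptor probes passed at 70% on Day2 and 8.74% to 14.1% elsewhere. Of 96 probes for ERCC spike-in sequences, which are not from mouse, 64.6% passed on Day2 and 4.17% to 9.38% elsewhere. Day7 alone was hybridised on the second slide, and for changes that involve it the slide cannot be told apart from the time. The labels were set against defining genes. The 6 pluripotency genes examined were well above background in ES cells and also on every later array, 4 of them were lowered at least 2-fold from ES to Day7, and Nanog was at 9.20 in ES cells and 9.98 on Day4. All 8 motor neuron genes with a probe were raised at least 2-fold from ES to Day7, with a median change of 5.76 log2 units, as were 7 of 8 general neuronal genes.

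Sim1 and Prdm8 appeared during the differentiation, Gata3 rose after the first day of RA, and En1 was not detected at any time. Sim1 was well above background on Day7 alone and Prdm8 from Day3 on. Gata2, Gata3, Tal1 and 1 Pax2 probe were well above background on every array, ES cells included, as were 67.7% of all genes. Evx1 was well above background on 4 arrays and Evx2 on Day2 alone. Between ES and Day7, 7 members could be compared. Of these, Gata3, Sim1 and Prdm8 were raised at least 2-fold and none was lowered, while 23.2% of all genes compared were raised and 24.4% lowered. The members' median change was 0.45 log2 units, against -0.07 over all genes compared.

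**Figure D1:**
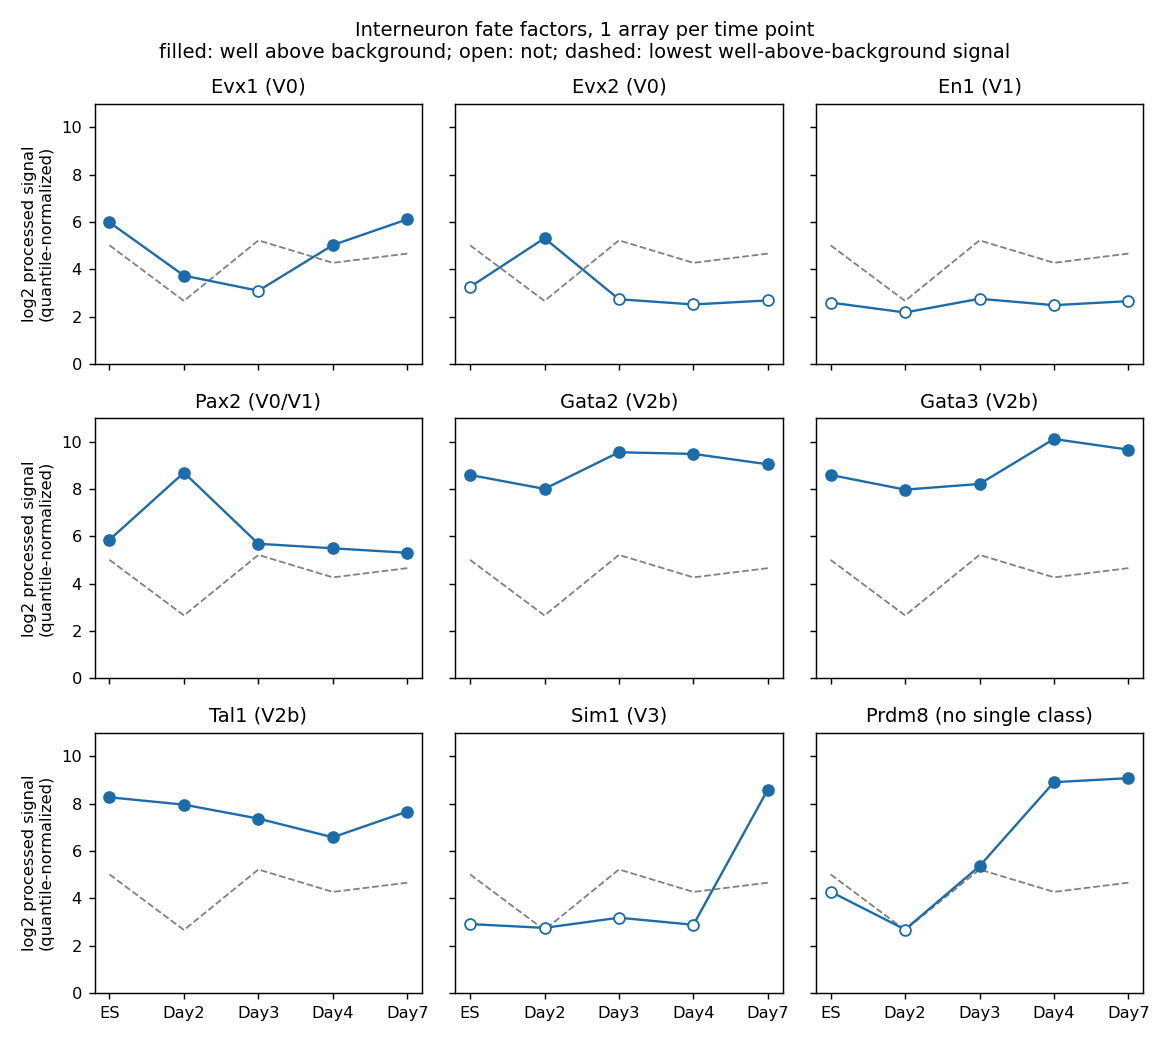
Log2 processed signal (quantile-normalized, vertical axis) of the 9 factors on the 5 arrays (horizontal axis), 1 array per point, with the brightest probe shown for Pax2. Filled points were well above background, open points were not, and the dashed line is the lowest signal among probes well above background on each array. Sim1 leaves the background on Day7 only, at 8.60, Prdm8 climbs to 8.91 on Day4, and the 5 En1 points are all open symbols.

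The start regions of the 3 members that were raised from ES to Day7 are shown because these genes left or rose over their earlier level in the course. The sequences come from RefSeq on GRCm38.p6, in which all 9 members have an entry, and run from 250 bases before to 50 bases after the start of the gene, 5′ to 3′ on the strand of the gene. Sim1 is on the plus strand at chr10:50895401-50895700, Prdm8 on the plus strand at chr5:98180619-98180918 and Gata3 on the minus strand at chr2:9878551-9878850. Capitals mark letters of the motifs searched on both strands, which were AGATAA and TGATAA (bound by GATA factors), CAGCTG and CATCTG (E-boxes, the sites of bHLH proteins such as Tal1 and the neurogenic factors), TAATTA (a homeodomain core), AGGTCA (a half-site of nuclear receptors, the family of the RA receptors), TATAAA (the TATA box) and GGGCGG (the GC box).
Sim1: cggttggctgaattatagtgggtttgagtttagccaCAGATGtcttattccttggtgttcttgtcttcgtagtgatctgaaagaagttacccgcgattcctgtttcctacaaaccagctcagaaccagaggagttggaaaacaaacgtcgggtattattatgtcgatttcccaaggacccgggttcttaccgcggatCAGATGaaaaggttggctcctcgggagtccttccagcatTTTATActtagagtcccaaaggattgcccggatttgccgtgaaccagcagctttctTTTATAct
Prdm8: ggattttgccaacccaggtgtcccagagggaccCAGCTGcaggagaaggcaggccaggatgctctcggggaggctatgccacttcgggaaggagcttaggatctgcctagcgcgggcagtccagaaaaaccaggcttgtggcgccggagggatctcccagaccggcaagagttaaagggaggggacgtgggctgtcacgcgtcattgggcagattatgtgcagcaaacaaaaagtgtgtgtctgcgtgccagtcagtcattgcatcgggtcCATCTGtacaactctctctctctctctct
Gata3: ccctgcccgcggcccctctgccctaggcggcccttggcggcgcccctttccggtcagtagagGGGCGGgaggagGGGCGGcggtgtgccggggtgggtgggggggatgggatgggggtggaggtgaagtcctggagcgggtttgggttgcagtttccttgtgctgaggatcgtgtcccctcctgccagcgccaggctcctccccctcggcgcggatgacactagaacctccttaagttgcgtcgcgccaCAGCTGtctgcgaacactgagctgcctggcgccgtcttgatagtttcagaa

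The Sim1 window holds CATCTG on the minus strand at -214 and -53 and TATAAA on the minus strand at -14 and 43, counted from the start of the gene. The Prdm8 window holds both E-box forms, CAGCTG at -217 and CATCTG at 22. The Gata3 window holds CAGCTG from -1 and the GC box at -188 and -176. No match overlaps another in these windows. Neither GATA form, TAATTA nor AGGTCA was found in these 3 windows. Of 32851 promoter windows of the same length, CAGCTG was found in 16.3%, CATCTG in 17.2%, TATAAA in 13.6% and GGGCGG in 35.7%, AGATAA in 11.2%, TGATAA in 9.05%, TAATTA in 5.29% and AGGTCA in 16.3%. Among the members with other start regions, AGATAA was found at 27 in the Evx2 window and at -205 in 1 of 2 Tal1 windows. The windows also differ in CG dinucleotides, with 13 for Sim1, 12 for Prdm8 and 22 for Gata3, against a median of 7 over all windows.

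Of the V0 factors, Evx1 was well above background on 4 arrays and Evx2 on 1, and Dbx1, the homeodomain factor of their progenitors, rose up to Day4 and fell again by Day7. The level of Evx1 was 5.98 in ES cells, then 3.73 (Day2), 3.09 (Day3), 5.02 (Day4) and 6.11 (Day7), and Day3 was not well above background. ES cells and Day7 were thus the highest arrays, and they differed by 0.13 log2 units, a value that turned to -0.05 after normexp background correction. Evx1 was lowered 4.75-fold from ES to Day2, the only member lowered in this step, in which 11.3% of all genes compared were lowered. That fall depended on the scaling. The processed signal itself was 64.3 in ES cells and 55.7 on Day2, and the change was -0.44 log2 units when arrays were scaled to their 75th percentiles, -0.71 after normexp and -0.21 without normalization. From Day4 to Day7 Evx1 was raised 2.12-fold, or by 1.09 log2 units, and by 0.47 after normexp, under the 2-fold rule.

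Evx2, which lies beside the HoxD cluster, was well above background on Day2 alone, at 5.31, with 3.25 in ES cells and 2.51 to 2.73 on the 3 later arrays. The rise from ES to Day2 was at least 1.23-fold after quantile normalization, and the bound was 1.56 log2 units after the 75th percentile shift, past the 2-fold rule. On Day2 its probe was brighter than 78 of the 96 spike-in probes on the same array, and 2189 genes, 11% of all, were likewise above background on Day2 alone. Hoxa13, the HoxA gene next to Evx1, had the same pattern of detection, at 6.62 on Day2 and dim on the other 4 arrays, whereas Hoxd13, next to Evx2, went from 7.50 in ES cells to below background on Day7. These neighbours were named after their values were seen. The part of the Day2 array's raised background in the Evx2 value was not tested.

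Dbx1 was at 2.94 in ES cells and not well above background, at 2.88 on Day2, 9.30 on Day3 and 11.39 on Day4, and dim again at 4.44 on Day7. It was raised 85.5-fold from Day2 to Day3 and 4.26-fold more from Day3 to Day4, and it was at least 107-fold lower on Day7 than on Day4. The first of these folds rests on a Day2 level close to 2.66, the lowest signal well above background on that array. On Day4, the peak of Dbx1, Evx1 was at 5.02. Evx1 is also a gene of the primitive streak, and of 8 genes listed for that tissue and posterior mesoderm, 5 could be compared from ES to Day7, of which none was raised and 1 was lowered. That gene was T, the brachyury factor, at least 5.86-fold lower on Day7.

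The V1 factor En1 was not well above background on any array. Its probe was printed at 10 spots, and its level was 2.59, 2.17, 2.75, 2.48 and 2.65 from ES to Day7, with an SD between spots of 0.09 to 0.30 on an array. The 5 levels all lay within 0.58 log2 units of each other. En1 was among 1260 genes, 6.33% of all, that were above background on no array, and on Day2, where weak probes passed most often, it was brighter than 2 of 96 spike-in probes. No sample of known V1 neurons was measured, so the reach of this probe is not known.

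Pax2, a paired domain factor of inhibitory interneurons, also known from the midbrain and hindbrain boundary and the kidney, peaked on Day2 on its brightest probe. The brightest probe was at 5.86 in ES cells, then 8.70 (Day2), 5.69 (Day3), 5.50 (Day4) and 5.31 (Day7). Day2 stands alone, and the other 4 arrays span 0.55 log2 units. Pax2 was raised 7.15-fold from ES to Day2 and lowered 8.07-fold from Day2 to Day3. It was the only member raised in the first of these steps, where 8.82% of all genes compared were raised, and the only member lowered in the second, where 7.76% were lowered. The change from ES to Day2 was 3.14 log2 units after the 75th percentile shift, 3.36 without normalization and 1.95 after normexp, and a bound of 2.12 with the 95th percentile of the spike-in probes as the floor.

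The other 2 Pax2 probes were well above background on Day2 alone, at 3.23 and 3.06, where 49 and 47 of the 96 spike-in probes were dimmer, and no fold could be formed. On the other arrays they lay between 2.41 and 4.15 without passing, so that after quantile normalization Day2 was the highest array of neither. This order depended on the scaling. Before normalization their processed signals were highest on Day2, at 42 and 34.7, with 10.2 and 16 in ES cells and 4.67 and 5.49 on Day3. Scaled to the 75th percentiles they were highest on Day2 too, at -4.64 and -4.92, with -6.46 and -5.81 in ES cells. The brightest probe exceeded 95 of 96 spike-in probes on Day2. With the mean over the 3 probes in place of the brightest, Pax2 gave no value in any step. Up and down by at least 2-fold over these steps was seen for 943 genes, 4.74% of all, and the part of the raised background on Day2 in this pattern was not tested. The 3 genes nearest to Pax2 over the 5 arrays, by the root mean square difference of centred log2 levels among 15164 genes above background on at least 3 arrays, were Zfp933 (0.13 log2 units), Prb1 and Efcab7 (0.18 each), all 3 with their highest level on Day2.

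**Figure D2:**
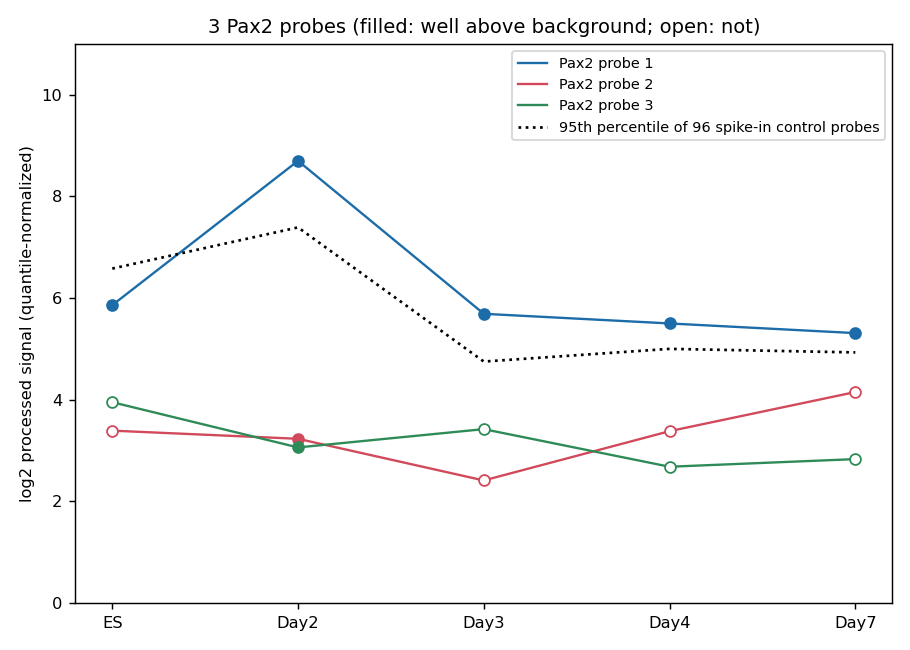
Log2 processed signal (quantile-normalized, vertical axis) of the 3 Pax2 probes on the 5 arrays (horizontal axis). Filled points were well above background and open points were not, and the dotted line is the 95th percentile of 96 spike-in control probes. Probe 1 reaches 8.70 on Day2, over the dotted line at 7.39, while probes 2 and 3 stay at or under 4.15 on every array.

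Genes listed for Pax2's other known sites were examined over the same days. Of 7 midbrain and hindbrain boundary genes, none was raised and 1 was lowered at least 2-fold from ES to Day2, the step in which Pax2 was raised. Over the whole course 6 could be compared, none was raised and 3 were lowered. Otx2, a forebrain and midbrain factor, fell 33.5-fold from ES to Day7, although it was raised 4.28-fold from Day4 to Day7, and Pax8, a close relative of Pax2, was at 5.23 in ES cells and 5.26 on Day2 and dim on the 3 later arrays. Of 6 kidney and intermediate mesoderm genes, 1 was raised and 2 were lowered from ES to Day2, and 3 were raised and 1 was lowered from ES to Day7. Osr1 was raised 4.36-fold over the whole course. Wt1, at 11.67 in ES cells, was raised 3.64-fold from ES to Day2 and lowered 2.79-fold from Day2 to Day3, as Pax2 was, and was 12.1-fold lower on Day7 than in ES cells. Foxd3, of the V1 list and also used by ES cells, was lowered 19.5-fold from ES to Day7.

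Gata2, Gata3 and Tal1, which act together in V2b neurons and also in blood, were detected in ES cells before any induction. The level of Gata2 was 8.60 in ES cells, then 8.01 (Day2), 9.56 (Day3), 9.49 (Day4) and 9.05 (Day7). On this scale the arrays from Day3 on were the highest and Day2 the lowest, while the processed signal was 425 in ES cells and 415 on Day4. Gata2 was raised 2.94-fold from Day2 to Day3, a step in which 13.0% of all genes compared were raised. Gata2 and Prdm8 were the 2 members raised in it. Without normalization the change was 0.55 log2 units, under the rule, while the median of all genes moved by -0.87. On Day7 it was 1.36-fold higher than in ES cells, which is under the rule.

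Gata3 was at 8.60 in ES cells, then 7.98 (Day2), 8.22 (Day3), 10.12 (Day4) and 9.67 (Day7). The last 2 arrays were the highest. It was raised 3.73-fold from Day3 to Day4, and over that step 3.62% of all genes compared were raised and 4.85% lowered. Gata3 and Prdm8 were the 2 members raised, and none was lowered. The change was 2.00 log2 units after the 75th percentile shift and 1.55 both without normalization and after normexp, and 167 genes, 0.839% of all, were raised by as much or more. Over the whole course Gata3 was raised 2.09-fold, by 1.07 log2 units, with 1.04 to 1.47 over the other scalings. Its probe passed the 95th percentile of the spike-in probes on every array.

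Tal1, the bHLH partner of the GATA factors, took another course. It was at 8.27 in ES cells, then 7.96 (Day2), 7.37 (Day3), 6.58 (Day4) and 7.67 (Day7), lower on each array up to Day4 and higher on Day7. The first of these differences, -0.30 log2 units from ES to Day2, was 0.04 with arrays scaled to the 75th percentile and 0.27 with none of the scalings. Day4, when Gata3 was at its highest, was the lowest array for Tal1, 3.21-fold below ES cells. The rise from Day4 to Day7 was 2.13-fold, and 0.65 log2 units after normexp, under the rule. On Day7 it was 1.51-fold lower than in ES cells, which is also under the rule.

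The 3 genes with patterns nearest to Gata2 were Fbrs (0.06 log2 units), Naa80 and Samd12 (0.08 each). For Gata3 they were Fzd1 (0.25), Slc16a12 (0.26) and Gm9112 (0.27), and for Tal1 Rassf5 and Il17d (0.07 each) and Adam23 (0.10). Of the members, Gata2 was the nearest to Gata3 at 0.72 and to Tal1 at 1.08, where the median gene lay 0.99 and 0.82 away. Tal1 was therefore farther from its nearest member than from the median gene.

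The other V2b genes and partners did not follow one course. Foxn4, which opens the V2 lineage in progenitors, was at 10.44 in ES cells, then 11.20 (Day2), 10.12 (Day3), 8.27 (Day4) and 6.17 (Day7), a fall of 19.3-fold from ES to Day7. Lmo4, the LIM-only adaptor of the V2b complex, kept between 12.56 and 13.57. Among 12 partner genes (LIM-only proteins, LIM-binding adaptors, E proteins and GATA cofactors), 4 were raised and 1 was lowered from ES to Day7. Lmo3 was raised at least 25.7-fold and Lyl1, a relative of Tal1, was lowered 3.52-fold. Lmo2, which bridges Tal1 and GATA proteins, was at 9.30 in ES cells, 6.58 on Day4 and 9.47 on Day7, so that its lowest array was also Day4. Ldb1 and Tcf3, the general LIM-binding and E protein partners, were at 11.44 and 12.09 or higher on every array.

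Blood genes moved over the same days. The embryonic globin Hba-x was dim in ES cells and then at 6.92 (Day2), 10.75 (Day3), 10.87 (Day4) and 7.30 (Day7), and Hbb-y went from dim in ES cells to 12.77 on Day4 and 9.30 on Day7. Hbb-y was at least 16.4-fold higher on Day7 than in ES cells, and the endothelial factor Etv2 fell 42.6-fold. Of the 15 blood and endothelium genes, 14 could be compared from Day2 to Day3, of which 5 were raised and 1 was lowered. From Day3 to Day4, 0 of 13 compared were raised and 1 was lowered. From Day4 to Day7, 2 of 12 compared were raised and 7 lowered. The levels of all 15 ranged from 2.05 to 13.33 in ES cells, from 2.48 to 12.89 on Day3, from 2.26 to 13.25 on Day4 and from 2.46 to 13.65 on Day7. Gata1, the red cell GATA factor, was 7.54 in ES cells and dim on Day7, Klf1 fell from 6.27 to dim, and the white cell factor Spi1 was above background on no array. The part of blood cells in the GATA and Tal1 levels was not tested. Gata2 and Gata3 are also genes of trophoblast and surface ectoderm. Of 12 genes listed for these, 11 could be compared from ES to Day7, of which 2 were raised and 6 lowered. Dlx5 was raised 2.92-fold and Ascl2 lowered 10.6-fold. The keratin Krt8 was at 11.94 in ES cells, 13.71 on Day4 and 10.89 on Day7, so that its highest array was that of Gata3. The part of such cells was not tested.

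Of the genes listed for V2a, the sister class, Vsx1 was above background on no array, and Sox14 was 1.3-fold lower on Day7 than in ES cells. Lhx3, a LIM factor of both V2 and motor neurons, was raised 4.85-fold from ES to Day7.

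Sim1, the bHLH-PAS factor of V3 neurons, was well above background on Day7 alone. Its level was 2.91 in ES cells, 2.75 on Day2, 3.18 on Day3 and 2.88 on Day4, none well above background, and 8.60 on Day7. The 4 early arrays lie within 0.43 log2 units of each other, far below Day7. The processed signal before normalization was 2.75 to 21.2 on these arrays and 555 on Day7. Sim1 was at least 20.1-fold higher on Day7 than on Day4 and at least 12.1-fold higher than in ES cells. The Day4 to Day7 bound was 4.48 log2 units after the 75th percentile shift, 5.80 without normalization, 2.52 after normexp and 3.61 with the 95th percentile of the spike-in probes as the floor. The bound from ES to Day7, 3.59 log2 units, was 3.72, 4.08, 2.26 and 2.03 under these alternatives.

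From Day4 to Day7, 3 members were raised, Evx1, Tal1 and Sim1, and none was lowered, while 17.8% of all genes compared were raised and 18.1% lowered. The members' median change over this step was 0.16 log2 units, against -0.12 over all genes. Sim1 was among 150 genes, 0.754% of all, that were above background on Day7 alone. This pattern also requires a gene to be dim on Day2, where 18252 of 19897 genes passed. A change or bound from Day4 to Day7 at least as large as that of Sim1 was found for 316 genes, 1.59% of all. On Day7 Sim1 was brighter than all 96 spike-in probes. This array was also the only one on its slide.

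The other V3 genes rose too, at different times. Nkx2-2, the homeodomain factor of the V3 progenitor domain, was at 8.47 in ES cells, then 6.28 (Day2), 7.45 (Day3), 7.92 (Day4) and 11.01 (Day7). Nkx2-9, which overlaps with it, was highest on Day4, at 12.89, and had fallen 6.35-fold by Day7. Uncx, a homeodomain factor of V3 and other neurons, went from 6.75 on Day4 to 9.28 on Day7, a rise of 5.79-fold. All 4 V3 genes, Sim1 included, were raised at least 2-fold from ES to Day7, with a median of 2.25 log2 units. The value of Sim1 is a bound and the others are measured changes.

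Sim1 is also a factor of the hypothalamus, whose other genes were mixed. Of 6 listed, 5 could be compared from ES to Day7, of which 2 were raised and 1 was lowered. Pou3f2 was raised at least 35.1-fold and Arnt2, a partner of Sim1, 23.5-fold, and both are used by other neurons. Nkx2-1 passed on Day4 alone, at 4.53. Rax was at 11.56 on Day2 and dim on Day7.

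**Figure D3:**
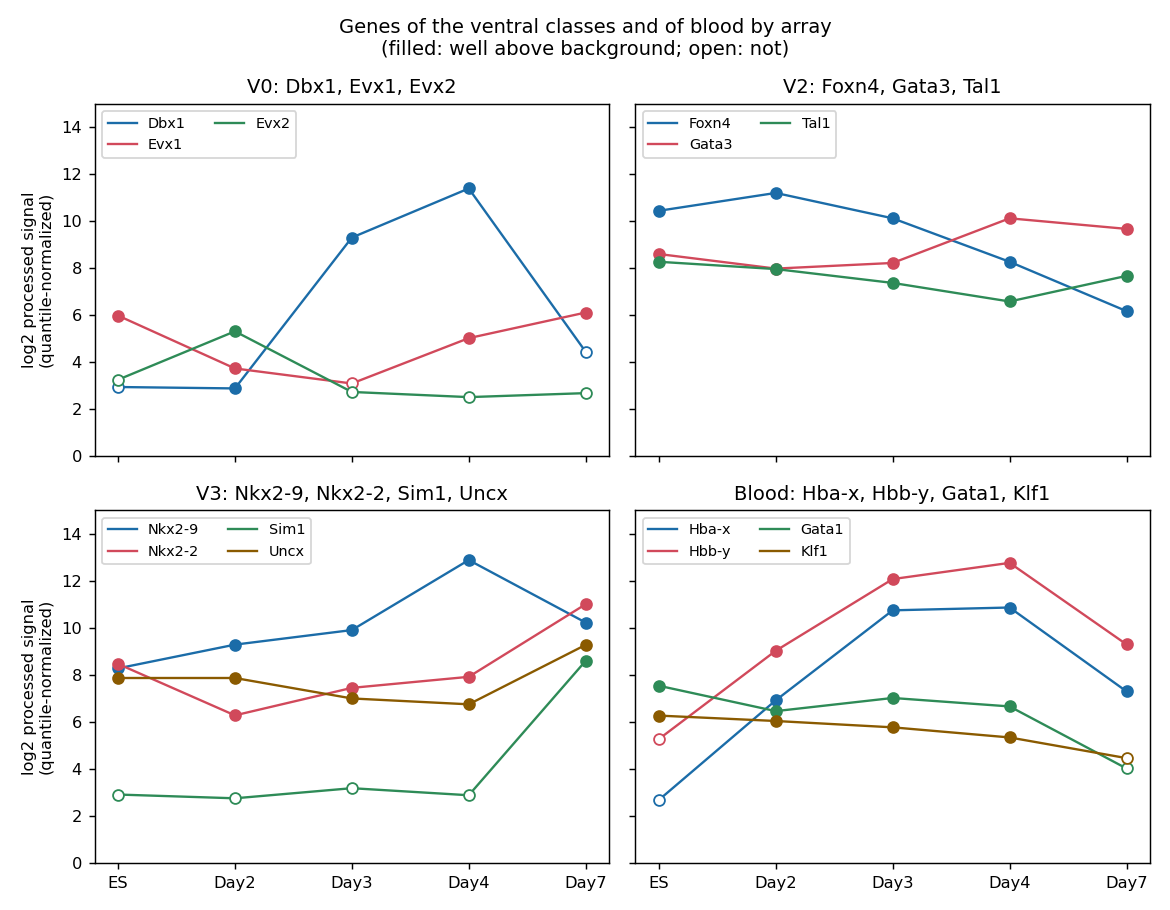
Log2 processed signal (quantile-normalized, vertical axis) on the 5 arrays (horizontal axis) of genes of the V0, V2 and V3 classes and of blood, with filled points well above background and open points not. Lines of different genes show courses only, since levels of different probes are not comparable. Dbx1 peaks on Day4 at 11.39, Sim1 rises on Day7 to 8.60, and Hba-x and Hbb-y are highest on Day4.

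Prdm8 rose between the first and the second day of RA and stayed high. Its level was 4.28 in ES cells and 2.68 on Day2, both not well above background, then 5.36 on Day3, 8.91 on Day4 and 9.08 on Day7. Day4 and Day7 were the high arrays and differed by 0.16 log2 units. Prdm8 was raised 11.8-fold from Day3 to Day4, and 12 genes, Prdm8 included, were raised by as much or more. It was at least 16.7-fold higher on Day7 than in ES cells, and 529 genes, 2.66% of all, had a change or bound of this size or more. This bound, 4.07 log2 units, was 4.21 after the 75th percentile shift, 4.57 without normalization, 2.87 after normexp and 2.50 with the spike-in floor.

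The step before, from Day2 to Day3, is less certain. The bound was 6.37-fold after quantile normalization, or 2.67 log2 units, 1.14 after the 75th percentile shift, 0.72 after normexp and 0.40 without normalization, where the processed signal was 18.3 on Day2 and 24.2 on Day3. The Day3 to Day4 change held past 2-fold in all 4 scalings, at 3.56, 3.97, 3.52 and 2.41 log2 units. Prdm8 was among 14 genes, 0.0704% of all, that were above background on Day3, Day4 and Day7 and not before. This pattern requires a gene to be dim on Day2, where 18252 of 19897 genes passed, so few genes could show it. On Day3 the level of Prdm8, 5.36, was close to 5.22, the lowest signal well above background on that array. The patterns nearest to Prdm8 were those of the homeobox gene Nkx1-2 (0.38 log2 units), Sox9, a factor of neural progenitors and glia (0.56), and Dach2 (0.63). Sox9 went from 4.62 in ES cells to 9.56 on Day4 and 10.53 on Day7.

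The other Prdm genes mostly fell. Of 10 with a probe, 9 could be compared from ES to Day7, of which 2 were raised and 6 were lowered at least 2-fold. Prdm16, a factor of neural stem cells, was raised at least 31.7-fold. Prdm12, which is used in V1 progenitors, was at 5.80 in ES cells, 7.61 on Day4 and dim on Day7. Prdm13, of dorsal progenitors, was at 7.05 in ES cells and dim on Day7.

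**Figure D4:**
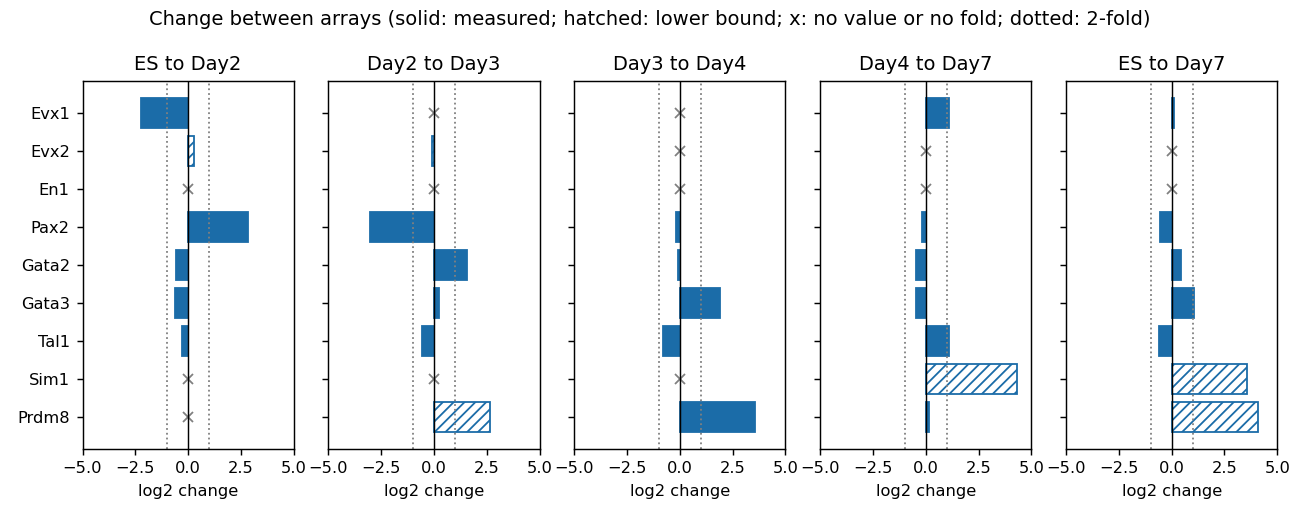
Log2 change (horizontal axis) of each of the 9 factors (vertical axis) over the 5 comparisons of arrays. Solid bars are measured changes, hatched bars lower bounds, crosses mark comparisons with no value or no fold, and dotted lines mark 2-fold. The longest bars are those of Sim1 from Day4 to Day7, at least 20.1-fold, and of Prdm8 from ES to Day7, at least 16.7-fold.

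Progenitor domain genes of these classes were raised most often, among the 4 steps between neighbouring arrays, from Day3 to Day4 and lowered most often from Day4 to Day7. Of 17 such genes, 16 could be compared from Day3 to Day4, of which 10 were raised and 1 was lowered. Between ES and Day7, 8 of 15 compared were raised and 6 lowered. From Day4 to Day7, 4 of 16 compared were raised and 10 lowered, with a median of -2.28 log2 units. Olig2, the motor neuron progenitor factor, was at 10.34 in ES cells, 7.87 on Day3, 11.47 on Day4 and 7.35 on Day7. Pax6, present in progenitors of V0 to V2 and of motor neurons, was at 10.28 on Day4 and 5.17 on Day7. Nkx6-1 was raised 193-fold from ES to Day7, and Irx3, a factor of the domains dorsal to motor neurons, 18.2-fold.

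Interneuron LIM factors and transmitter genes also moved by Day7. Lhx1 was at 7.89 on Day4 and 6.44 on Day7, and Lhx5, its relative in V0, V1 and V2b neurons, at 5.31 and 7.40. Isl1, the LIM factor of motor neurons, was raised 66.9-fold from ES to Day7. Of the 5 transmitter genes with a probe, 3 were raised and none was lowered from ES to Day7. Slc17a6, the vesicular glutamate transporter of excitatory interneurons, was raised 39.4-fold, and Gad1, which makes GABA, at least 3.04-fold. Slc32a1, the transporter that loads GABA and glycine into vesicles, was 1.35-fold higher. Of 12 dorsal interneuron genes, 7 could be compared, none was raised and 3 were lowered.

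**Figure D5:**
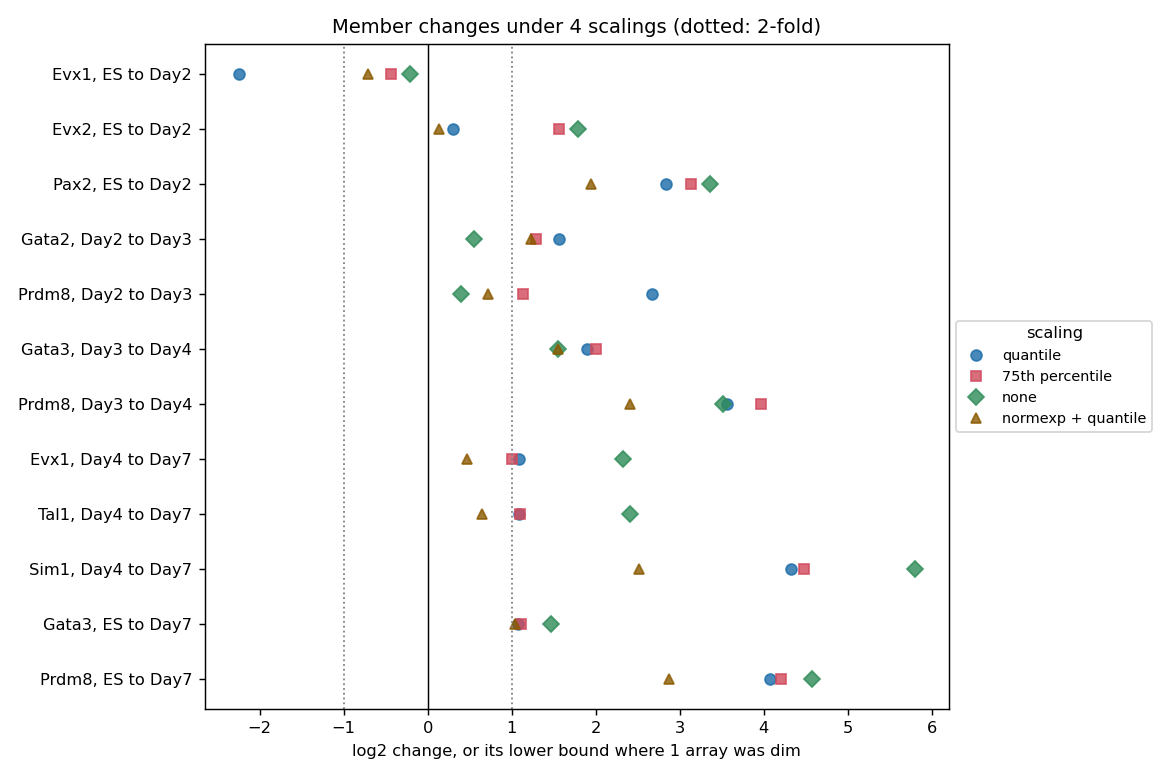
Log2 change, or its lower bound where 1 array was dim (horizontal axis), for 12 member comparisons (vertical axis) under 4 ways to scale the arrays, given by colour and shape, with dotted lines at 2-fold. The changes of Pax2 from ES to Day2, of Gata3 and Prdm8 from Day3 to Day4, of Sim1 from Day4 to Day7 and of Gata3 and Prdm8 from ES to Day7 stay beyond 2-fold under all 4 scalings, whereas Evx1 from ES to Day2 passes only under quantile normalization.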

How the data were processed

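Total RNA of 5 samples, 1 per time point, was labelled with Cy3 and hybridised to Agilent SurePrint mouse arrays. The authors deposited scanner files made with Agilent Feature Extraction 10.5.1, per the labels. Their intensity values are background-subtracted spot signals that the authors had not yet brought to a common scale. A table of log2 values was deposited as well. For 100% of probes this table equalled, within 0.01, log2 processed signal minus the 75th percentile of the array, and it was used as an alternative. The labels place RA and Shh between day 2 and day 5, while the sample names count days of RA, and the study's methods name the smoothened agonist SAG.

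After control and outlier spots were left out, log2 intensities were averaged over the spots of a probe. The arrays were then quantile-normalized with limma 3.58.1 under R 4.3.3, following the study's legend. Of 55681 probes, 26300 were matched by accession to a RefSeq table of GRCm38.p6, which was used for names and neighbours only, since the arrays name an earlier build. The brightest probe over the arrays stood for its gene. A probe was called well above background where more than 50% of its spots carried that flag. A dim side was set to its own value or, if higher, to the lowest signal of any well-above-background probe of its array. Pairs dim on both arrays gave no value. Pairs whose bright side lay under that lowest signal gave no fold and count as 0 in medians. The fixed rule of size was 2-fold. No probe of a member was saturated. Mnx1, Slc6a5 and Prdm10 were matched by no probe and are not analysed here. The number of arrays limits the precision of all values. Later steps used Python 3.11.15 (pandas 2.3.3, numpy 2.4.6) and were tested on simulated data, and plots used matplotlib 3.10.9.

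Members and lists were chosen with earlier results of these data known. The rule for named genes was all members and, of each list, the genes with the largest and smallest change from ES to Day7, plus named partners and domain genes. Genes outside it (Pax8, Prdm12, Prdm13, Hba-x, Gata1, Klf1, Spi1, Krt8, Vsx1, Arnt2, Nkx2-1, Gad1, Slc32a1, Hoxa13, Hoxd13) were named after their values were seen. Some genes that fall under the rule are not reported here. The pluripotency list was added to the others.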

Additional observations from a re-analysis of the deposited data

How the results depend on the processing

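No paired analysis was possible because there was 1 array for each time point, and for the same reason no replicate could be left out. The slide block could not be fitted, with Day7 alone on its slide. Of 324 member changes recomputed under the alternatives, 290 kept their side of the rule of size, 14 fell under it and 20 passed it. The 1.5-fold and 4-fold alternatives were judged by their own thresholds, so part of the 14 and of the 20 are unchanged values. Changes left with no value or no fold under an alternative are not counted. Examples are Evx1 from ES to Day2 with the spike-in floor and Pax2 in every step with the mean over probes. Of the changes counted, none beyond 2-fold turned its sign, but 12 smaller ones did. Among these were, without normalization, Gata2 (0.88) and Pax2 (0.92) from Day4 to Day7 and Gata3 (-0.89) from Day2 to Day3. Numbers of members beyond the rule moved as follows. From ES to Day2, with 1 raised and 1 lowered, the 75th percentile shift, the deposited values and no normalization gave 2 raised and 0 lowered, the other detection flag and no filter 2 raised and 2 lowered, normexp and the 95th percentile spike-in floor 0 lowered, the mean over probes 0 raised, and 1.5-fold 3 lowered. From Day2 to Day3, with 2 raised and 1 lowered, the 75th percentile shift and the deposited values gave 3 lowered, no normalization 0 raised and 4 lowered, normexp, the spike-in floor, both arrays above background and 4-fold 1 raised, the mean over probes 0 lowered, and the other flag, no filter and 1.5-fold 2 lowered. From Day3 to Day4, with 2 raised and 0 lowered, no normalization and 1.5-fold gave 1 lowered, 4-fold 1 raised, and the other flag and no filter 3 raised. From Day4 to Day7, with 3 raised, normexp and 4-fold gave 1, both arrays above background 2 and no normalization 4. From ES to Day7, with 3 raised and 0 lowered, both arrays above background gave 1 raised, since bounds were then left out, 4-fold 2 raised and 1.5-fold 1 lowered. Apart from the thresholds and the left-out bounds, the cause was not tested. Of all genes beyond 2-fold from ES to Day2, 43.9% were raised, against 70.2% after the 75th percentile shift, 82.9% without normalization, 29.5% with both arrays above background and 56.7% with the spike-in floor. From Day2 to Day3 these were 62.6%, 25.5%, 3.41%, 76% and 49.2%. From Day3 to Day4, 42.7% became 20.1% without normalization and 53% after normexp, and from Day4 to Day7 49.5% became 94%. The median gene then moved by 0.25, -0.87, -0.51 and 1.15 log2 units over the 4 steps. From ES to Day7 it moved by -0.58 after the 75th percentile shift. Weak signals limit Evx1, Evx2, En1 and the 2 dim Pax2 probes.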
